A study of Caenorhabditis elegans with 2 samples.

Results

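The regions described here are the peaks of TBX-37 that lay near the start of a single protein-coding gene. They also lay away from genes annotated as tRNA, snoRNA, snRNA, rRNA or miRNA. They were taken from the authors' conservative peak list, made by comparing 2 biological replicates, which held 1107 peaks. A peak was a member if its summit had no tRNA, snoRNA, snRNA, rRNA or miRNA gene within 100 bp and had exactly 1 protein-coding gene start within 1000 bp on either side. The rule kept 308 peaks (27.8%, exact 95% binomial interval 25.2 to 30.6). Of the other peaks, 300 lay at a small RNA gene, 253 had no start within 1000 bp and 246 had several. Both replicates were whole early embryos of strain RW12282, collected at 0 hours by bleaching, in which CRISPR had inserted a TY1, EGFP and 3xFLAG tag at the endogenous tbx-37 gene on chromosome III. Chromatin was sheared by sonication and precipitated with an antibody against GFP. There was 1 group and so no contrast between conditions. Whole embryos pool many cell types, so the cells in which a region was bound are not known from these lists. The lists hold no read counts, the depth of each replicate is unknown, and intervals cover counting error over peaks or genes alone. Signal is a number that the authors gave to every peak. It has no physical unit and can be compared only within a list. Coordinates are 1-based positions in ce11, the WBcel235 assembly.

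TBX-37 is a T-box transcription factor, a family named for the Brachyury protein whose members bind DNA through a conserved T-box domain. In C. elegans it acts redundantly with its close paralog TBX-38 in descendants of the anterior blastomere ABa, where the pair are needed for the anterior pharynx. A promoter is the sequence around a gene start at which RNA polymerase II and its cofactors assemble. In C. elegans many transcripts are trans-spliced to a leader RNA, so that an annotated start is often the splice site and transcription begins further upstream.

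Sequence at the strongest members is shown for 75 bp each side of the summit on the strand of the gene, so that the summit is base 76 of 151. The first set holds 5 of the strongest members whose window holds no exon of a protein-coding gene. Also among the strongest were cyn-10, M01F1.9 and eel-1, which are shown in later sets for a longer shared word. In the first set capitals mark copies, on either strand, of 4 words that the results below turn on. These are the GAGA word GAGAGA, the leading word of a search through all 6-base words (CGCGCA) and the words GGCCTA and GGCCAC. The windows are chrIII:8043889-8044039 (plus strand), chrV:12870056-12870206 (minus), chrII:14795079-14795229 (plus), chrII:4740108-4740258 (plus) and chrIII:3867490-3867640 (plus).
K12H4.5: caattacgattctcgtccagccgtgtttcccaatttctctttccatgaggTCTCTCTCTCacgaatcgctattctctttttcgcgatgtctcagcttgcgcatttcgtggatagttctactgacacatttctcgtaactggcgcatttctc
T07F10.3: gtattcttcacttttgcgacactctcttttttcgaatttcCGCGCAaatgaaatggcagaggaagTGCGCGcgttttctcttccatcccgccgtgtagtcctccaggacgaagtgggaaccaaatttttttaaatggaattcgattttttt
eif-3.B: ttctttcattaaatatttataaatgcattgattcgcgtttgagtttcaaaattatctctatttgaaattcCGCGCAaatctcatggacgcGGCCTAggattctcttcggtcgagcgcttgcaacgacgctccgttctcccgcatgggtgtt
eas-1: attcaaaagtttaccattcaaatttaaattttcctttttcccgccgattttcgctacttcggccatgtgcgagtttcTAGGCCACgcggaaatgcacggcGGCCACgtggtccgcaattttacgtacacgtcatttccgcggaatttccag
rpl-3: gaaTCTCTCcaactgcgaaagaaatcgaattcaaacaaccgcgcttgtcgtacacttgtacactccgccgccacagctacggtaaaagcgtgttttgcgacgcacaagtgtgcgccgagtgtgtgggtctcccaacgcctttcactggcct
K12H4.5 and rpl-3 carried the GAGA word and none of the other 3 words in these windows. T07F10.3 held CGCGCA on both strands, eif-3.B held CGCGCA and GGCCTA, and eas-1 held GGCCTA and GGCCAC.

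Some members shared longer stretches with one another. The next set shows members that held the 12-base word ACTCCTCTCGGA, in capitals, chosen after the data had been seen. The windows are chrII:6913436-6913586 (minus strand), chrV:16401648-16401798 (plus) and chrII:4791400-4791550 (plus).
cyn-10: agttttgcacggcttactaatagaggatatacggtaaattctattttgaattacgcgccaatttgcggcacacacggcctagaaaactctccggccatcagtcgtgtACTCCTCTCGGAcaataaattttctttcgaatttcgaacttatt
F13A7.14: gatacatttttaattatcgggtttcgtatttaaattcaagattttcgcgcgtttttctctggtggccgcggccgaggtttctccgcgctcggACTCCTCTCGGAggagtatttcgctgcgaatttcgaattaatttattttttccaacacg
F26G1.1: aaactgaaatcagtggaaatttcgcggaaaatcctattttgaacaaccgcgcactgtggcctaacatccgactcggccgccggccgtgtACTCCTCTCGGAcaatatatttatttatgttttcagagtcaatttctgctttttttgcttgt
In all 3 the word stood to the gene side of the summit and on the strand of the gene. The last set shows members that held ACGAAAAGGGGA, in capitals, chosen in the same way. The windows are chrIII:3499960-3500110, chrIV:3050803-3050953 and chrII:11534943-11535093, all on the minus strand.
M01F1.9: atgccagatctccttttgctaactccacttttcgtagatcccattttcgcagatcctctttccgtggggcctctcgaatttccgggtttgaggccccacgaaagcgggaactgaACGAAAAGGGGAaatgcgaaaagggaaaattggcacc
eel-1: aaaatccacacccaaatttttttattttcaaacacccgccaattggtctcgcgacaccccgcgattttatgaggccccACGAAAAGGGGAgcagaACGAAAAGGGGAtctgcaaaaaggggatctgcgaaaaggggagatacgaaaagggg
Y62F5A.12: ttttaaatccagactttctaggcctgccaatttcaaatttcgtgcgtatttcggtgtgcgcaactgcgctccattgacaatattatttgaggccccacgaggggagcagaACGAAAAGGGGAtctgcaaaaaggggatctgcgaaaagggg
All marked copies again stood to the gene side of the summit, and the window of eel-1 held 2 of them. Of the words marked in the first set, M01F1.9 and eel-1 held none in these windows and Y62F5A.12 held GGCCTA.

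The member with the highest signal value lay 523 bp upstream of K12H4.5, at chrIII:8043860-8044075, with a value of 745. It was the 3rd strongest peak of all 1107 and more than double the next member. In the replicates' own lists its values were 273 for replicate 1 and 480.4 for replicate 2, the highest of any member in both. RefSeq lists K12H4.5 as an uncharacterized protein. Second came a peak 146 bp upstream of cyn-10 (349, chrII:6913423-6913572), which encodes a cyclophilin, an enzyme that isomerizes proline bonds. Its values were 125 in replicate 1 and 224 in replicate 2. Then followed T07F10.3, named by RefSeq for an RNA recognition motif (323, 86 bp upstream), M01F1.9, named for an arrestin domain (290.2, 978 bp upstream), and eel-1, a HECT-type ubiquitin ligase (283, 774 bp upstream). A further eel-1 peak 372 bp upstream had a signal value of 201. All members among the strongest 25 stood in the own lists of both replicates, and in each of the 25 the value was higher on the scale of replicate 2.

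The remaining 20 strong members are given here by the known roles of their genes. In translation were eif-3.B, a subunit of initiation factor 3 (279.6, 250 bp upstream), and rpl-3, a protein of the large ribosomal subunit (267, 289 bp upstream). In RNA processing were the splicing helicase gene mog-4 (262), plrg-1 (231) and sluh-7 (217), which encode spliceosome proteins, and thoc-5 (214), a subunit of the THO complex that couples transcription to export. In protein handling were bag-1, a cochaperone of Hsp70 (229), and ufd-3, a partner of the CDC-48 segregase (225). In the nucleus were set-2, a histone H3 lysine methyltransferase (224), and mrt-2, the RAD1 homolog of a DNA damage checkpoint clamp (224). The set also held eas-1, a putative Golgi transport protein (278), the alpha tubulin gene tba-7 (258), klp-6, a kinesin of ciliated neurons (244), and mtcu-2, the homolog of a mitochondrial tRNA modifying enzyme (211). The other 6 were C49A9.10 (252), lrpr-1 (233), Y56A3A.7 (227), K05C4.7 (225), Y62F5A.12 (218) and Y38C1AA.12 (218), for most of which RefSeq gives only a domain. Of the strongest 25 members, 21 were upstream of their start.

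**Figure D1:**
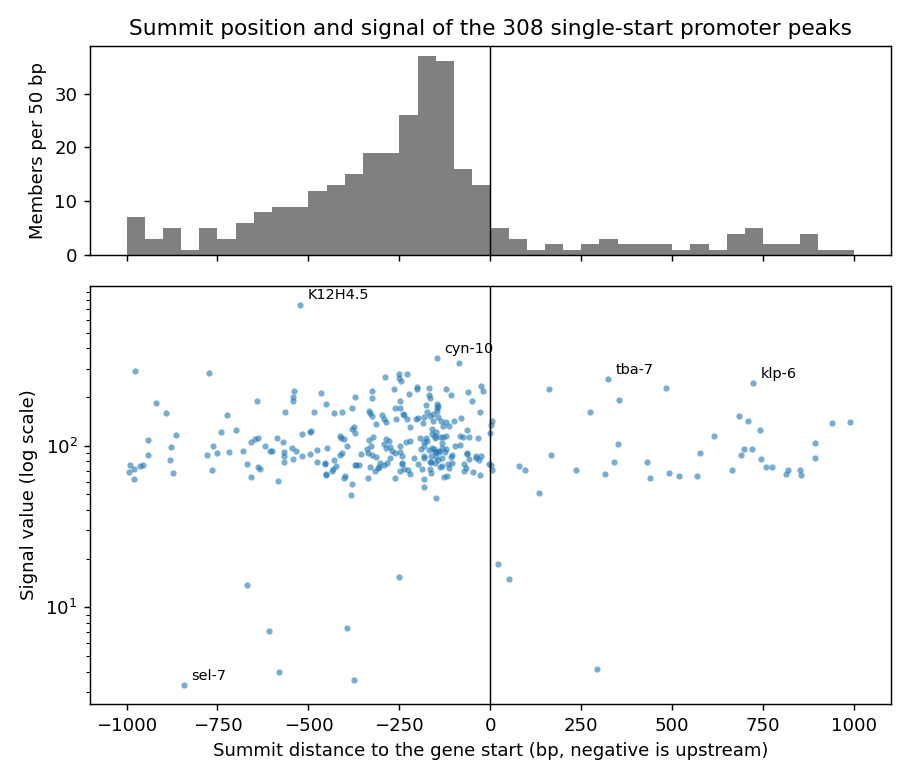
The upper panel counts members in 50 bp steps of summit distance to the gene start, and the lower panel plots the signal value of each of the 308 members on a log scale against the same distance. Members crowd 1 to 500 bp upstream, K12H4.5 stands at 745, and a separate group of 10 members lies under a signal value of 20.

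Most members lay upstream of the start they were assigned to. Of the 308 summits 262 were upstream (85.1%, exact interval 80.6 to 88.9) and 46 were downstream. The median signed distance, with negative values upstream, was -221.5 bp (quartiles -409 and -107). The stretch 1 to 200 bp upstream held 102 members (33.1%) and the stretch 201 to 500 bp upstream 104 (33.8%). The nearer of these 2 stretches is the shorter, so members lay more densely there. A further 56 lay 501 to 1000 bp upstream (18.2%), 11 within 200 bp downstream (3.57%) and 35 further downstream (11.4%). The distance limit was 1000 bp on both sides, but positions that the rule could accept were not counted by side. Median signal was 100.9 for the members 1 to 200 bp upstream, 98.5 for those 201 to 500 bp upstream and 92.8 beyond, against 75.1 and 84.1 in the 2 downstream stretches. The ranges overlapped. The highest value of each stretch was 745 for 501 to 1000 bp upstream, 279.6 for 201 to 500, 349 for 1 to 200, 224 for 0 to 200 downstream and 258 beyond.

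The summit lay inside the assigned gene for 41 members and inside another protein-coding gene for 20 (6.49%), and 246 were upstream of the start and outside any protein-coding gene. Genes annotated only as non-coding RNA, a class that the rule did not remove, lay over some summits. There were 25 such overlaps, and a summit could lie in 2 of these genes. Among these summits were the 2 strongest downstream members, tba-7 (324 bp downstream, at the genes T28D6.13 and T28D6.15) and klp-6 (723 bp downstream, at srpr-2.2). A B0284.3 member (114, 615 bp downstream) lay at srpr-1.1. The kind of RNA at these summits was not examined. The cox-4 summit lay in a pseudogene. The 308 members belonged to 293 genes, and 15 genes had 2 members each.

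Genes with a member were counted among those that could have had one. Of 19973 protein-coding genes 19310 had at least 1 position that the rule could accept, and 293 of these had a member (background 1.52%, interval 1.35 to 1.70). The 36 gene lists used below were set beside this share, with no set test, and were chosen with earlier results of these data known. Whether an interval holds 1.52% is a description, unadjusted over the 36 lists, with genes taken as independent. Lists were made by matching gene names, and genes with a member more often had a name beyond the sequence name (70.6% against 54.5%). How far this bears on the shares of the lists was not tested. The lists named 97 of the 293 genes, while 196 stood in no list.

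Genes of the ribosome carried members most often of the 36 lists. Among cytoplasmic ribosomal protein genes 10 of 58 eligible had a member (17.2%, interval 8.59 to 29.4), against 1.52% of all eligible genes. All 10 were upstream, at 160 to 430 bp, with signal values from 72.3 to 267 and a median of 93.5, against 96.1 for all members. The strongest were rpl-3 (267, chrIII:3867518-3867641), rpl-35 (159.7, chrIII:7854576-7854831) and rps-24 (146, chrIV:385466-385721). For rpl-3 the own-list values were 83.9 in replicate 1 and 178 in replicate 2, and for rpl-35 they were 61.6 and 95.3. The list also held rpl-24.2 (96.99), which RefSeq names as a ribosome biogenesis protein. The other lists of protein synthesis had 1 or 2 members each. Translation factors had 2 of 42, eif-3.B and eif-3.C (189.8), both subunits of initiation factor 3. Aminoacyl-tRNA synthetases had 2 of 30, yars-2 for tyrosine (143) and kars-1 for lysine (76.5). Mitochondrial ribosomal proteins had 1 of 55, mrpl-15 (112.1), and ribosome biogenesis 1 of 36, pro-1 (62.2). For each of these other lists of protein synthesis the interval held the background of 1.52%.

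Genes for protein quality control had members in each list. Chaperones and cyclophilins had 6 of 91 (6.59%, interval 2.46 to 13.8), led by cyn-10, bag-1 and the protein disulfide isomerase gene pdi-6 (134). Ubiquitin conjugation had 3 of 70, namely ufd-3, the deubiquitinase gene usp-4 (190.3) and cdc-48.1 (163), which encodes the segregase that UFD-3 binds. Proteasome subunits had 1 of 26, pbs-3 (113).

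Genes for making and handling RNA had members in each list. RNA processing, export and decay had 4 of 57 (7.02%, interval 1.95 to 17.004), with the polyadenylation factor genes cpsf-1 (146) and cpf-2 (115.5) and the RNase H2 gene rnh-2 (100.2) as the strongest. RNA polymerase, TFIID and Mediator had 4 of 75, led by the Mediator genes mdt-26 (153) and mdt-22 (113) and by ttb-1, which encodes the general factor TFIIB (112.3). Splicing and snRNP proteins had 2 of 75, mog-4 and mog-3 (198). The spliceosome genes plrg-1 and sluh-7 among the strongest members stood outside that list. The intervals for RNA polymerase, TFIID and Mediator (1.47 to 13.1) and for splicing and snRNP proteins (0.325 to 9.30) held the background of 1.52%.

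In the nucleus, nuclear pore and transport genes had 4 of 45 (8.89%, interval 2.48 to 21.2). They were the nucleoporin genes npp-18 (161), npp-8 (118) and npp-13 (107) and the importin gene ima-3 (78.02). Chromatin modifiers had 4 of 109, led by set-2, the histone acetyltransferase gene cbp-1 (184) and the SWI/SNF subunit gene swsn-3 (180.3). Histones had 3 of 47, and all of these were linker histone genes, his-24 (85.8), hil-3 (76.3) and hil-7 (70.7). The cell cycle and division list had 7 of 109 (6.42%, interval 2.62 to 12.8). Its strongest member, klp-6, encodes a kinesin of ciliated neurons rather than of the spindle, and after it came bir-1, the survivin homolog of the chromosomal passenger complex (171), and spd-5, a centrosome scaffold gene (104). DNA replication and repair had 2 of 62, pole-1 (150.4) and rpa-2 (106.1). The intervals for chromatin modifiers (1.01 to 9.13), histones (1.34 to 17.5) and DNA replication and repair (0.393 to 11.2) held the background of 1.52%.

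In the cytoplasm, cytoskeleton and motor genes had 7 of 82 (8.54%, interval 3.50 to 16.8), led by the tubulin genes tba-7 and tba-2 (114) and the profilin gene pfn-2 (110.3). Vesicle traffic had 6 of 143 (4.20%, interval 1.56 to 8.91), led by sec-12 (143), vps-39 (118) and the clathrin adaptor gene apa-2 (93.1). Among mitochondrial genes, the respiratory chain had 2 of 54 (3.70%, interval 0.452 to 12.7), cox-5B (119) and cox-4 (66.0), and mitochondrial import and carriers had 2 of 34 (5.88%, interval 0.720 to 19.7), tomm-20 (106.3) and the mitofusin gene fzo-1 (81.7). Both intervals held the background of 1.52%.

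Lists of developmental regulators had few members or none. No T-box gene of 22 had a member, which allows a share of up to 13.6%, and no homeobox gene of 103, which allows up to 2.91%. Nuclear hormone receptors had 2 of 273, nhr-32 (89.3) and nhr-141 (88.0). The list of bHLH, GATA, forkhead and SOX factors had 1 of 75, egl-27 (64.4), and zinc finger, bZIP and other factors had 3 of 129, atf-6 (78.03), zip-2 (70.8) and ztf-3 (70.4). None of these 6 values reached the median of all members. Summed over the 5 regulator lists, 6 of 602 eligible genes had a member (0.997%, interval 0.367 to 2.16), and this interval holds the background of 1.52%.

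Signalling genes had members in each list, and for 2 of the 3 lists the interval held the background share. Wnt and polarity genes had 3 of 39 (7.69%, interval 1.62 to 20.9), the planar polarity gene vang-1 (127), the beta-catenin gene wrm-1 (70.4) and the Groucho corepressor gene unc-37 (63.5). Notch and REF-1 genes had 2 of 32, adm-4, homolog of an ADAM metalloprotease (146), and the presenilin gene sel-12 (78.7). The list of kinases, phosphatases and G proteins had 3 (2.61% of those eligible). They were sur-7 (100.2), the Raf kinase gene lin-45 (96.1) and the casein kinase gene kin-20 (75.4). Lists were made by matching gene names, so a place in this list does not show that sur-7 encodes such a protein.

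Large families of sensory and environmental genes had members at a lower share than all eligible genes. Chemoreceptors, the receptors of sensory neurons, had 2 of 1313 (0.152%, interval 0.0185 to 0.549), srh-246 (161) and srbc-38 (60.6). F-box and MATH genes had 0 of 458, which allows up to 0.655%, and C-type lectins and immune effectors 0 of 322, which allows up to 0.932%. Collagens and cuticle genes had 1 of 346, col-111 (79.8), and neuropeptides, channels and synapse genes 1 of 433, the insulin-like gene ins-39 (93.1). Metabolic enzymes had 2 of 353, dhs-1 (159) and aco-1 (69.6). The upper ends of the intervals for chemoreceptors, F-box genes, lectins and neuropeptides were below 1.52%. Germline and maternal genes had 2 of 173, the sperm gene spe-36 (155) and the meiosis gene him-17 (112.04), and muscle and adhesion genes 2 of 70, dlg-1 (88.0) and unc-112 (58.4). Shares in the last 2 lists were 1.16% (interval 0.140 to 4.11) and 2.86% (interval 0.348 to 9.94). The intervals for collagens, metabolic enzymes, germline and muscle genes held the background of 1.52%.

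**Figure D2:**
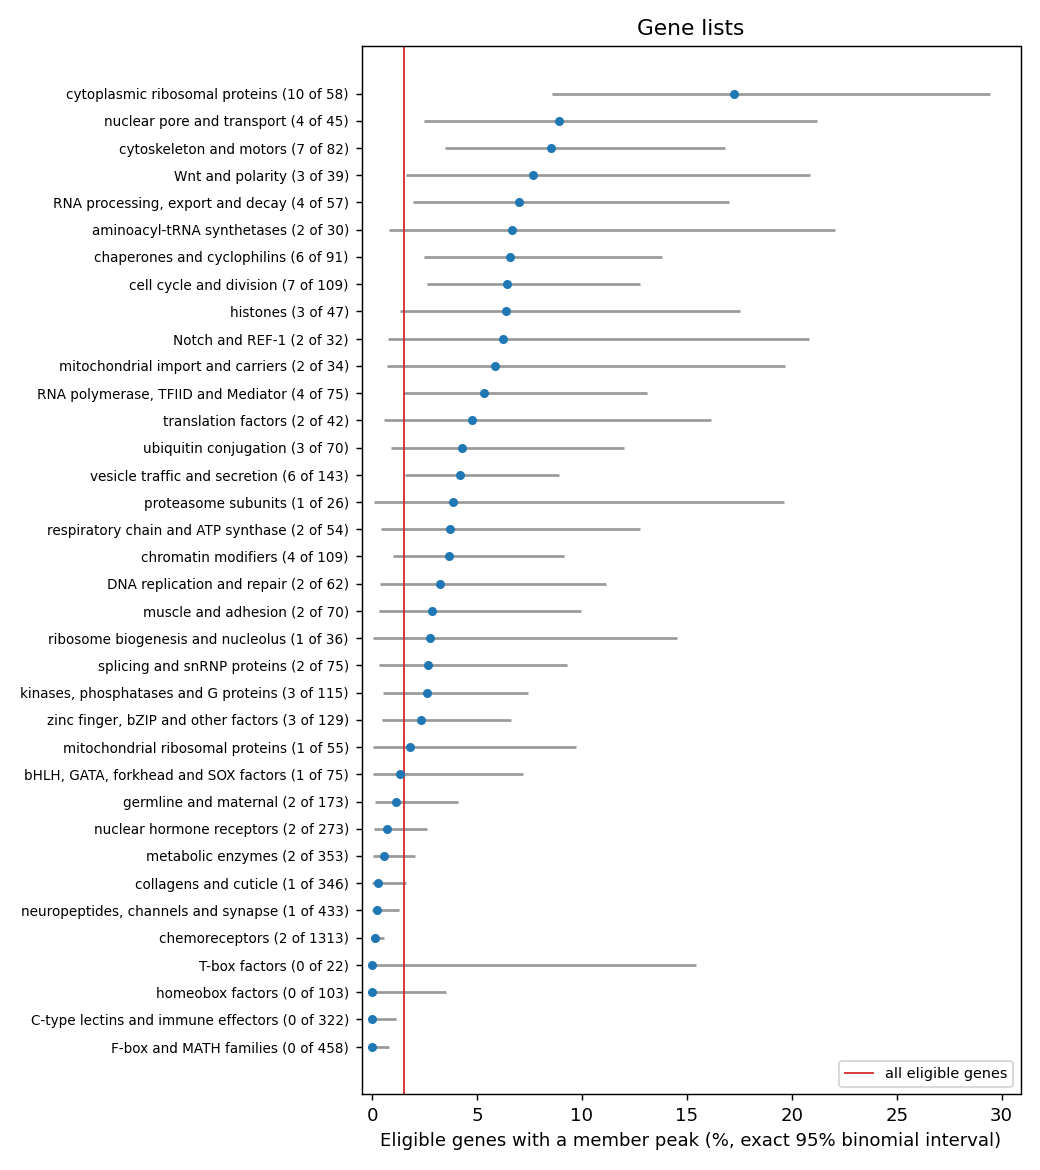
Each point is the percent of eligible genes of a list that had a member peak, with an exact 95% binomial interval over genes, and the numbers in brackets give genes with a member and eligible genes. The line marks 1.52%, the share over all eligible genes, and cytoplasmic ribosomal proteins stand at 17.2%.

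Genes with a member were longer, with a median of 2957 bp between the annotated ends (quartiles 1478 and 4824) against 2070 bp (1263 and 3689) for the 19017 eligible genes without one. A gene name beyond the sequence name had been given to 207 of the 293 (70.6%) and to 54.5% of the others. Chromosome X had a member at 59 of 2710 eligible genes (2.18%, interval 1.66 to 2.80) and chromosome I at 60 of 2774 (2.16%), while chromosome V had one at 41 of 4841 (0.847%, interval 0.608 to 1.15). Chromosome II stood at 1.48%, III at 1.70% and IV at 1.30%. The order by share was not that by signal, since median signal was 86.1 on X, the lowest, and 135 on III, the highest.

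In signal the members sat between the other peaks away from small RNA genes. Their median was 96.1 (quartiles 76.4 and 142), against 111 for peaks with several starts and 81.8 for peaks with no start, while peaks at small RNA genes had 150.2. All 4 ranges overlapped widely. Of the strongest 100 peaks of the list 11 were members, and of the strongest 200 there were 37. The highest score of 1000, which reflects the reproducibility of a peak between replicates, was reached by 232 members (75.3%, interval 70.1 to 80.04), by 85.0% of the peaks with several starts and by 57.3% of those with none. Narrower members had higher signal. The 47 members narrower than 256 bp had a median signal of 214, and 24 of the strongest 25 were among them, while the 261 members exactly 256 bp wide had a median of 89.8.

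The weakest members were all partners of a stronger peak a fixed distance away. In all, 10 members had signal values under 20, and the next lowest of the 308 was 47.6, so that no member lay between. The weakest were sel-7 (3.30, 841 bp upstream), edc-4 (3.55, 376 bp upstream) and unc-112 (3.99, 582 bp upstream). Each of the 10 had a second member at the same gene 199 to 212 bp away with a value from 47.6 to 111. The sel-7 partner had 74.3, the edc-4 partner 71.6 and the unc-112 partner 58.4. In the whole list all 20 peaks under 20 had a stronger neighbour 199 to 219 bp away. Of the 298 members with a value of 20 or more, 11 had another peak within 220 bp. These 11 were the partners of the 10 weak members and zip-2, which had a peak of 6.17 with no start 219 bp away. The count thus follows from the weak peaks themselves. The limit of 20 was chosen after the values had been seen. Scores of the weak members were not low in step with their signal, since 4 of the 10 had the highest score of 1000. The 2 regions of each pair overlapped by 44 to 57 bp, so that a replicate's peak can be counted for both. In the candidate lists, which hold all peaks that entered the comparison, 7 of the 10 overlapped a candidate of replicate 1 (25.9 to 39.9) and 10 a candidate of replicate 2 (35.95 to 73.8). The other 5 genes with 2 members had summits more than 300 bp apart, up to 476 bp, and both values over 60.

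**Figure D3:**
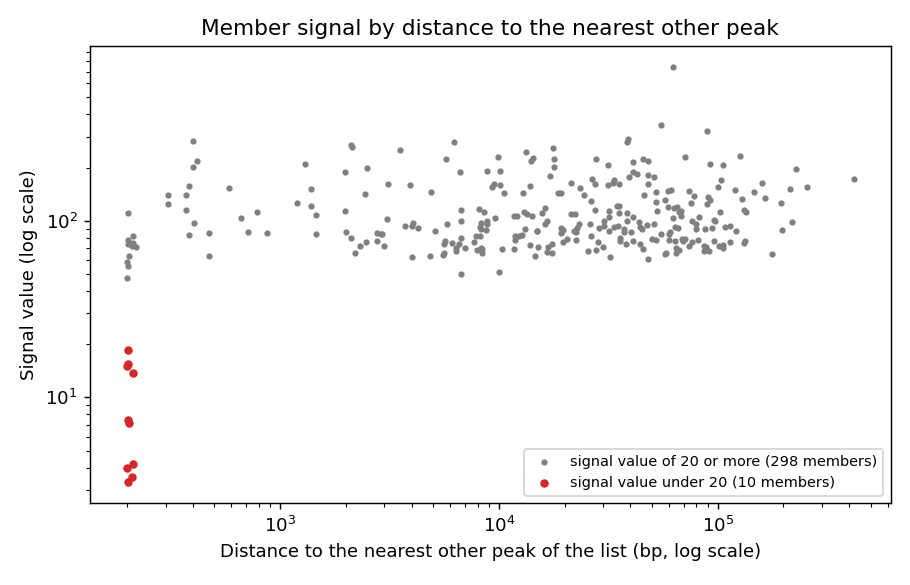
Each point is a member, with its distance to the nearest other peak of the list on the horizontal axis and its signal value on the vertical axis, both on log scales. The 10 members under a value of 20 stand 199 to 212 bp from their neighbour.

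The replicates' own lists were shorter and held part of the members. Replicate 1 alone gave 538 peaks, which overlapped 120 members (38.96%, interval 33.5 to 44.7), and replicate 2 alone gave 817, which overlapped 178 (57.8%, interval 52.1 to 63.4). Both own lists overlapped 99 members (32.1%, interval 26.96 to 37.7) and neither overlapped 109 (35.4%). The share in both was 67.3% for peaks at small RNA genes, 39.02% for peaks with several starts and 22.1% for peaks with none. Members in both own lists had a median signal of 161, those in replicate 2 only 97.3, those in replicate 1 only 94.0 and those in neither 73.2. Presence in an own list thus rose with signal, which was itself derived from reads of both replicates. Below the threshold nearly all members had a candidate, 302 in replicate 1 and 306 in replicate 2, with 300 in both. Across these 300 members the candidate signal values had a Spearman rho of 0.64 between the replicates, and across the 99 in both own lists 0.68. Both are descriptions over regions of the same libraries, which are not independent replicates.

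**Figure D4:**
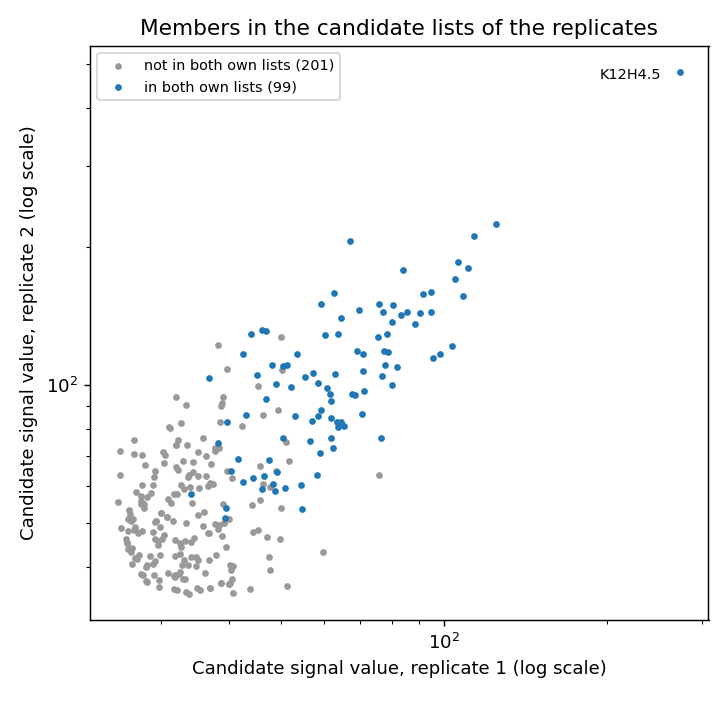
Each point is 1 of the 300 members with a candidate peak in both replicates, with the candidate signal value of replicate 1 and of replicate 2 on log axes, and colour marks the 99 members in the own list of each. The values rise together, from 24.96 to 273 in replicate 1 and from 34.9 to 480.4 in replicate 2, on scales that differ between the lists.

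The T-box recognition sequence was searched in the 201 bp around each summit, on both strands. The consensus AGGTGTGA occurred at 0 of 308 summits, which allows a share of up to 0.974%, and in 0.484% of windows of the same length at the members' median distance from the starts of 19017 eligible genes without a member. The shorter core GGTGTG, which the consensus contains, occurred at 26 summits (8.44%, interval 5.59 to 12.1), in 5.52% of windows 500 bp upstream, in 5.84% of windows 500 bp downstream and in 5.21% of the promoter windows. An exact McNemar test, two-sided and taking the larger p of both flanks, did not call the difference (adjusted p = 0.461 over 19 motifs). Members with the core had a median signal of 93.6 and those without it 96.1. Absence of these letters says only that they were not in this window.

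Of 19 listed motifs 4 passed this exact test (21.1%), 1 higher at summits and 3 lower. The GAGA word GAGAGA stood at 70 summits (22.7%, interval 18.2 to 27.8), against 10.4% of upstream flanks, 13.3% of downstream flanks and 13.6% of promoter windows (exact McNemar, adjusted p = 0.0176). It also stood at 23.2% of peaks with several starts, 26.5% of those with none and 30% of those at small RNA genes. The call was lost with narrower or wider windows, in the other series-wide list, among members with the highest score and in each replicate's own list. Adjusted p in these exact tests ran from 0.0712 to 1, and under the 3 settings that kept the call from 0.00351 to 0.0377. The GC box GGGCGG, which binds zinc finger factors of the Sp1 family, stood at 31 summits (10.1%), against 2.27% and 4.55% of the flanks and 4.33% of promoter windows, and missed the threshold (exact McNemar, adjusted p = 0.0510). It stood at 16.7% of peaks with several starts, 8.70% of those with none and 13.3% of those at small RNA genes. It passed with windows of 50 bp, with flanks 1000 bp away, in the other series-wide list, among members with the highest score and without members that held a recurring word. The smallest adjusted p of these exact tests was 0.000555. The E2F-like word GGCGGGA, which shares 5 bases with the GC box, stood at 3.90% of summits and 0.974% of either flank (exact McNemar, adjusted p = 0.0954).

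The motifs lower at summits were the splice acceptor word TTTCAG, the GATA word TGATAA and the TCF word CTTTGA. The splice acceptor word stood at 19.2% of summits, 36.04% of upstream flanks and 46.8% of downstream flanks (exact McNemar, adjusted p = 6.4e-05), and in 31.1% of promoter windows. For a summit at the members' median distance, the flank 500 bp downstream lies past the gene start. The part of gene sequence in this call was not tested. This call was lost in the own list of replicate 1 (exact McNemar, adjusted p = 0.311). The GATA word, bound by the GATA factors of the gut and skin lineages, stood at 6.17% of summits against 19.8% and 15.6% of flanks and 20.8% of promoter windows (exact McNemar, adjusted p = 0.00251). The call was lost with wider windows and in each own list, where adjusted p in the exact test was 0.122 to 0.763. The TCF word, bound by the Wnt effector POP-1, stood at 4.87% against 14.9% and 11.4% of flanks and 15.3% of promoter windows (exact McNemar, adjusted p = 0.0262). The call was lost in the other series-wide list, with the highest score and in each own list, with adjusted p in the exact test from 0.106 to 0.548. The SKN-1 word ATGATNAT stood at 1.95% of summits against 6.82% and 6.17% of flanks and 5.11% of promoter windows and missed the threshold (exact McNemar, adjusted p = 0.0510). The other 10 motifs were not called, which does not show that their shares were equal. They were the reversed T-box control AGTGTGGA, the ETS word CCGGAA, the CCAAT word, the CRE word TGACGT, the palindromic E-box CACGTG, the TATA word TATAAA, a run of 8 T, the forkhead word TGTTTAC, the LAG-1 word TGGGAA and the homeodomain word TAATTA. Their shares at summits ran from 1.62% to 31.2% and in promoter windows from 0.484% to 34.1%. The run of T passed with windows of 50 bp, the E2F-like word among members with the highest score and the SKN-1 word in 4 of 9 settings, with adjusted p in these exact tests from 0.00575 to 0.0445.

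Base composition moved with these results. Member summits had a median GC content of 42.8% over 201 bp, against 34.8% in the upstream flanks, 38.8% in the downstream flanks and 33.8% in promoter windows. They held a mean of 11.5 CG dinucleotides, against 6.67, 8.77 and 6.06. Peaks with several starts had 39.8% GC, those with none 43.8% and those at small RNA genes 47.3%. The part of composition in the motif and word calls was not tested.

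Words of 6 bases were then compared without a choice of motif. Of 2080 words, with both strands joined, 139 passed the exact McNemar test (6.68%), 103 higher at summits (4.95%) and 36 lower (1.73%). Of the 103 higher words 64 held the dinucleotide CG (62.1%), against 29.0% of all words, and of the 36 lower words 1 did. The leading word CGCGCA stood at 77 of 308 summits (25%), at 1.95% of upstream flanks, at 1.62% of downstream flanks and at 4.34% of promoter windows (exact McNemar, adjusted p = 4.7e-14). It stood at 21.1% of peaks with several starts, 11.9% of those with none and 6% of those at small RNA genes. ACGCGC (20.8%), GCGCAA (20.1%) and CCGCGC (16.9%) share 5 bases with it and were at 1.62% to 3.57% of flanks. A separate group of words held the 4 bases GGCC. Of these, GGCCTA stood at 55 summits (17.9%) against 2.27% and 0.649% of flanks and 3.36% of promoter windows (exact McNemar, adjusted p = 7.6e-09), and GGCCAC at 61 (19.8%) against 3.25% and 3.57% of flanks and 3.12% of promoter windows (adjusted p = 1.5e-08, exact McNemar). GGCCTA also stood at 23.2% of peaks with several starts, 7.11% of those with none and 9.33% of those at small RNA genes. For GGCCAC these shares were 20.3%, 10.3% and 18.7%. The lower words were led by GATCAA, which stood at 2.60% of summits, 14.6% and 17.5% of flanks and 11.8% of promoter windows (exact McNemar, adjusted p = 3.9e-06). The calls of CGCGCA and of ACGCGC and of GGCCTA held under all 9 alternative settings that were run. The number of called words did not hold, and fell to 42 when the 96 members with a recurring word of 12 bases were left out, a setting added after seeing the data.

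The words differed in where they stood and in the signal of their members. Copies of GGCCAC had a median distance of 14.5 bp from the summit and copies of GGCCTA 19 bp, while an even spread over the window would give 49 bp. The median was 27.5 bp for CGCGCA and 57.5 bp for the GAGA word. Of both GGCC words, 58.3% of the copies of GGCCTA and GGCCAC lay within 20 bp of the summit, against 39.3% for CGCGCA and 16.9% for the GAGA word. Among these 3 kinds of word, the GGCC words stood closest to the summit and the GAGA word farthest from it. Other called words stood as close, since 31 of the 103 higher words had a median under 25 bp and 9 of the 31 held GGCC. Either GGCC word stood at 82 members, with a median signal of 129. Members with CGCGCA and no GGCC word had 93.1 and those with neither CGCGCA nor a GGCC word had 88.0. Of the strongest 25 members 12 had a GGCC word and 2 the GAGA word, while of the weakest 25 the numbers were 2 and 9. CGCGCA or a GGCC word stood at 139 members (45.1%), 20 of which held both kinds. Signal and word position were compared after the words had been picked and are descriptions.

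**Figure D5:**
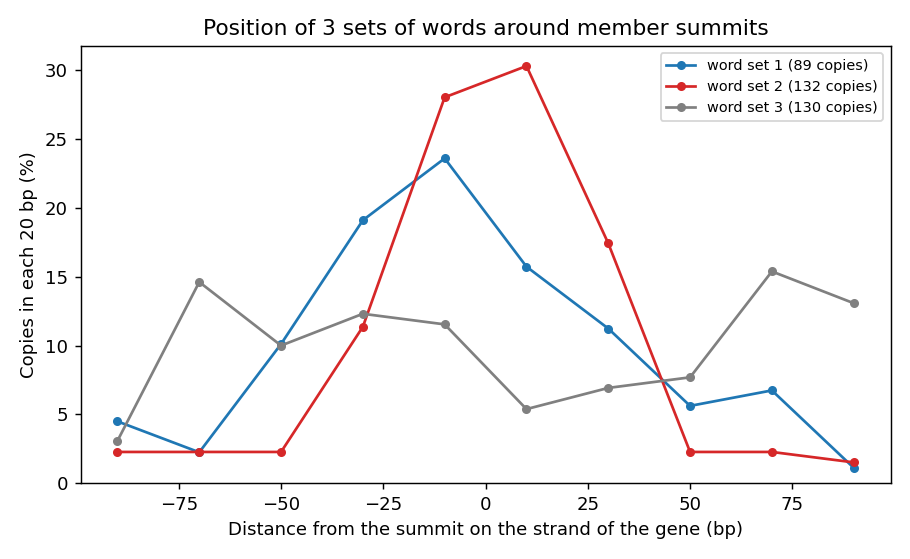
Lines give the percent of copies of a word set in each 20 bp step from the summit, on the strand of the gene. Set 1 is the leading 6-base word, set 2 the pair of words with GGCC and set 3 the GAGA word, and set 2 peaks within 20 bp of the summit (58.3% of 132 copies) while set 3 does not (16.9% of 130).

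Longer stretches recurred between members, as shown in the sequences near the start. Words of 12 bases were taken in turn by the number of members that held them, down to 5 new members, and 96 members held at least 1 of the 13 words so found. These words were picked from these windows and have no test. The word ACGAAAAGGGGA stood at 14 members of 12 genes, at 7 peaks with several starts, at 4 with none and in 7 of 19017 promoter windows, and occurred 373 times in the genome. Its members included M01F1.9, both eel-1 peaks, Y62F5A.12, Y32B12B.4, rps-24, nrde-2 and spd-5, with signal values from 72.2 to 290.2 and a median of 133. The word ACTCCTCTCGGA stood at 13 members of 13 genes, at 14 peaks with several starts and in 27 promoter windows (0.142%). Its members included cyn-10, mrt-2, thoc-5, F13A7.14, npp-8, ttb-1 and wrm-1, from 70.4 to 349 with a median of 162 and a median signed distance of -161 bp. A CA repeat stood at 13 members with a lower median of 76.0, and it was present 5308 times in the genome.

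Sequence copied elsewhere in the genome took little of the members. A summit window was compared with the genome in words of 36 bases. In 259 members (84.1%) no such word occurred a second time, and in 15 (4.87%) at least 50% of the words did. Peaks with no start had 26.1% at that level. Members with at least 50% copied had a median signal of 114 and those with none 92.6. Reads from copied sequence can be placed at more than 1 locus, and how the authors treated them is not given in the sources used here.

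Values close to the limits of the rule were similar on both sides. Just inside 1000 bp of a start were R119.5 (992 bp, signal 68.4) and ain-1 (991 bp, 76.0), and just outside were peaks at 1010 bp (72.5) and 1011 bp (76.2). The members closest to a small RNA gene were zip-2, 224 bp from a snoRNA gene (70.8), and F37F2.2, 287 bp from another (84.2). Left out by that limit were peaks near C33A12.4 (83 bp from a snoRNA gene, 84.1) and cmtr-1 (82 bp, 103). No member lay between 100 and 224 bp of a small RNA gene.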

How the data were processed

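Peak lists were used as deposited for 2 biological replicates in 1 group. Sources used here name neither the aligner nor the peak caller, and the control experiment listed in the labels was not used here. The score of each deposited peak comes from its irreproducible discovery rate, with a maximum of 1000. The signal value is the value the authors wrote for each peak, on a scale that differs between lists. The authors' summit offset set positions. The ranked list has 8 further per-sample columns not tied to a replicate by name and not used.

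Genes came from Ensembl WBcel235 annotation release 115, product names and genome sequence from RefSeq (Python 3.11.15, pandas 2.3.3, scipy 1.17.1). Intervals are exact binomial at 95%. A count of 0 allows up to 3 counts. Motifs and words were tested in windows of 100 bp each side of a summit against windows 500 bp up- and downstream, with an exact McNemar test, the larger p of both sides and Benjamini-Hochberg adjustment at 0.05. Nearby peaks are not independent, and these p-values do not measure the spread between embryos. The word test was checked on windows at random genome positions, with and without a planted word. Those windows lacked the GC difference between member summits and flanks, so the check does not cover it.

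Members, gene lists and motifs were chosen with earlier results of these data known. Genes named are the 25 strongest and 3 weakest members, the 3 strongest of each list and those beside each limit. Those named where a count is small, with recurring words or as pairs were chosen after their values were seen. Alternatives were other lists, distances, positions, starts, windows and overlaps. Leaving out weak members or members with recurring words, and taking 1 member per gene, were added after seeing the data.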

Additional observations from a re-analysis of the deposited data

How the results depend on the processing

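In the own lists of the replicates the number of members was 128 to 215, the share upstream 87.5% to 89.8%, the median signed distance -240.5 to -227 bp, the median signal 57.7 to 72.0 on scales of their own, and the share of eligible genes with a member 0.642% to 1.09%. In those lists 0 to 1 fixed motifs and 19 to 88 words passed, with fewer members tested. With 0 of 19 motifs called by the exact McNemar test in the list of replicate 1 (3 at an unadjusted p under 0.05), CGCGCA still passed there (adjusted p = 7.2e-05). A start limit of 500 bp gave 91.5% upstream and a median distance of -174 bp, and a limit of 2000 bp gave 76.7% and -241.5 bp, as the limit itself bounds the distance. Members with the highest score had a median signal of 111.9 and covered 1.16% of eligible genes. Windows of 200 bp each side gave 2 called motifs and 84 called words. Without members holding a recurring 12-base word, 42 words passed, of which 40 were among the 139. A reciprocal overlap of 50% left 23.7% of members in both own lists. The cause of these shifts was not tested where not stated. Limits were set as the exact interval for shares and a fixed ratio for counts. For median distance and median signal they were the standard deviation of the 2 own-list values (9.55 bp and 10.1). The own lists were also among the alternatives, and their signal scales differ, so the next count is a description alone. Of 70 alternative values of the main results 49 stayed within their limits. For the other series-wide list, midpoints, a small RNA limit of 500 bp, starts of all transcripts and the weak members left out, this held for the main results they were run on, while calls of single motifs changed in the other series-wide list, where GAGA and TCF were lost (exact McNemar, adjusted p = 0.0905 and 0.154). Depth is unknown, and 2 replicates of 1 group allow no outlier check and no paired analysis.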
